A study of Mus musculus with 6 samples.

Results

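Tight junctions and adherens junctions hold neighbouring epidermal cells together, and 8 of their genes were examined for binding of p65, the RelA subunit of NF-κB, in mouse epidermal cells. The 8 genes were chosen by name, with earlier results of these data known, and no measured value entered the choice rule. They were Cldn1, Cldn4 and Cldn7 (claudins), Ocln (occludin), Tjp1 (ZO-1), F11r (JAM-A), Cdh1 (E-cadherin) and Ctnnb1 (β-catenin), out of 21000 protein-coding genes with a curated RefSeq start site. A p65 peak was assigned to a gene when the nearest curated start site to the midpoint of the peak belonged to that gene. By this rule 17 of 8525 peaks in the adult list, 10 of 4169 in the list of aged/IgG control mice (the IgG list) and 10 of 6014 in that of aged/anti-IL-17A/F mice (the anti-IL-17 list) belonged to the 8 genes.

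All mice were of the strain C57bl/6J. The adult mice were 17 to 25 weeks old and untreated. The aged mice were 73 weeks old at the start and received, for 12 weeks, intraperitoneal injections of either a control IgG or blocking antibodies to IL-17A and IL-17F, cytokines whose receptors signal to NF-κB in keratinocytes. Chromatin of epidermal cells separated from the skin with trypsin was precipitated with an antibody to p65, and the reads of 4 mice per condition were merged before peaks were called. Each condition is therefore a single list of peaks without replicates, so no spread between mice is known and no difference between lists was tested. An input sample accompanied each condition, 3 in all, and these were not analysed here. Peak lists carry no expression values, so the epidermal label could not be checked against marker genes, and the reads behind a single peak are unknown.

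The label of the adult list has a limit that touches every adult value. All 8525 peaks in the list labelled adult carry names with the same stem as the 6014 peaks of the anti-IL-17 list, whereas no name in the IgG list has it. The list differs from the anti-IL-17 list in its length and values, and it is called the adult list here after its label. Results that compare only the aged lists do not use the adult list. The names alone cannot show which of the lists sharing the stem is the treated one, so those results also rest on the labels.

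Claudins and occludin span the membrane and seal the space between cells, ZO-1 ties them to actin from inside the cell, and JAM-A is an immunoglobulin-like protein of the same contacts. E-cadherin is the adhesive receptor of adherens junctions in keratinocytes, and β-catenin binds its cytoplasmic tail and also acts in Wnt signalling. In skin these contacts contribute to the barrier of the granular layer. p65 recognises a 10-base consensus that opens with G bases and closes with C bases, and it can also be held at DNA through other factors such as AP-1.

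The consensus lay within 100 bp of the summit at 5 of the 17 sites, and these windows are shown because they hold the strongest peaks of Cldn1, Cldn4 and, in the adult list, F11r. All sequences are of the mm10 (GRCm38) plus strand, read 5′ to 3′ from the RefSeq genome and centred on the adult summit, with the consensus in capitals. Sites are named by the distance in kb of the peak midpoint from the start site, positive being downstream in the direction of transcription.
Cldn4 −10.3 kb, chr5:134957189-134957389: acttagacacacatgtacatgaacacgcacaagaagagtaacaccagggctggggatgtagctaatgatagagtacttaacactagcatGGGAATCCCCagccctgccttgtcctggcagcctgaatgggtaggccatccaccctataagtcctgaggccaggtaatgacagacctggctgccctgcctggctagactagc
Cldn1 −29.2 kb, chr16:26400982-26401182: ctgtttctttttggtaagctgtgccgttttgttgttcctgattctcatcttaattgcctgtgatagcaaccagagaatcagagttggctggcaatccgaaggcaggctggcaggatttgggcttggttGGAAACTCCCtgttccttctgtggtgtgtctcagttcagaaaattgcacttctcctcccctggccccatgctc
Cldn1 +16.9 kb, chr16:26354794-26354994: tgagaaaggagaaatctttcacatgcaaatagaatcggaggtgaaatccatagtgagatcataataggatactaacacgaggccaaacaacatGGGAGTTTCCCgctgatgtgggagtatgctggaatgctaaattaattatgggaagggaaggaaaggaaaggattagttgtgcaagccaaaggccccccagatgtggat
F11r +4.0 kb, chr1:171441464-171441664: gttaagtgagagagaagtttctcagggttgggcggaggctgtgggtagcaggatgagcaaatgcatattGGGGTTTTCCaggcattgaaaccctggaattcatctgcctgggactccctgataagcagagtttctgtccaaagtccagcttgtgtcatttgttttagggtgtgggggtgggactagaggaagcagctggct
Cdh1 +0.8 kb, chr8:106604211-106604271: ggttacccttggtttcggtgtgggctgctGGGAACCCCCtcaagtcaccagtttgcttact

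In the Cldn4 window the consensus reads in both directions, as GGGAATCCCC on the plus strand and GGGGATTCCC on the minus strand, with its centre 6 bp from the adult summit. The capitals at Cldn1 +16.9 kb hold a pair of overlapping matches, GGGAGTTTCC on the plus strand and GGGAAACTCC on the minus strand, 2 bp and 1 bp from the summit. GGGAGTTTCC recurs at Cldn1 −29.2 kb on the minus strand, so both motif sites of Cldn1 share the same 10 bases. The match at F11r +4.0 kb is GGGGTTTTCC, 26 bp from the summit, and that at Cdh1 +0.8 kb is GGGGGTTCCC on the minus strand, 4 bp from the summit. A match describes the letters in the window and not a bound site.

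At least 1 assigned peak was present at 6 of the 8 genes in the adult list, at 5 in the IgG list and at 4 in the anti-IL-17 list. Of all protein-coding genes, 23.0%, 12.9% and 17.4% had an assigned peak in the same lists. Cldn1, Cldn4, F11r and Cdh1 were bound in all 3 lists. Ocln was bound in the adult and IgG lists, and Tjp1 in the adult list alone. Cldn7 and Ctnnb1 had no assigned peak in any list. The adult count was that of the longest list. With the 4169 strongest peaks of each list, the counts were 4, 5 and 4 genes, since Tjp1 (best adult rank 4212) and Ocln (rank 6457) fell outside the adult set. At that length 13.1%, 12.9% and 13.0% of all protein-coding genes had an assigned peak.

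**Figure D1:**
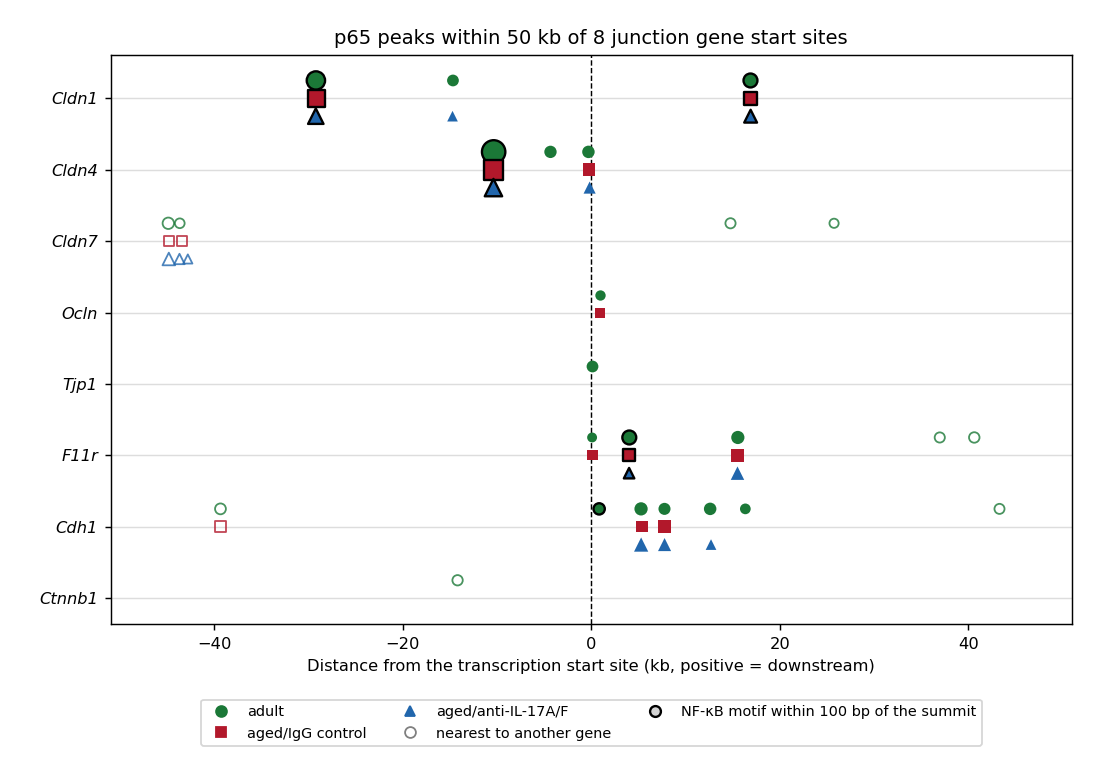
Position of each p65 peak within 50 kb of the start sites of the 8 genes (horizontal axis, kb from the start site), with one row per gene and one marker shape per list. Filled markers are peaks assigned to the gene, open markers peaks nearest to another gene, marker area grows with fold enrichment, and a black outline marks the NF-κB consensus within 100 bp of the summit. The strongest peaks lie upstream of Cldn4 and Cldn1, Cdh1 carries a row of peaks downstream of its start, and the Tjp1 peak at −98.7 kb falls outside the plot.

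The 17 adult peaks define 17 sites, and every peak of the aged lists at these genes overlapped one of them. 8 sites were called in all 3 lists, 2 in the adult and IgG lists, 2 in the adult and anti-IL-17 lists and 5 in the adult list alone. Thus 10 of 17 adult peaks were overlapped by at least 1 bp in the IgG list and 10 of 17 in the anti-IL-17 list. Over all adult peaks, 45.5% and 60.4% were overlapped. Of the 10 IgG peaks, 8 were overlapped in the anti-IL-17 list, beside 86.6% of all IgG peaks. The exceptions were the peaks at the start of F11r and in Ocln.

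Cldn4 had the strongest assigned peak of the 8 genes in every list, as long as start sites of noncoding genes were also used. Its site at −10.3 kb, which carries a match on each strand, had a fold enrichment over local background of 10.4 in the adult list, 8.03 in the IgG list and 6.59 in the anti-IL-17 list. These values ranked 281 of 8525, 272 of 4169 and 730 of 6014, so the peak stood above 96.7%, 93.5% and 87.9% of its list. The site lies outside gene records, and the next protein-coding gene start, that of Mettl27, is 24758 bp away. A weaker peak at the promoter, −0.3 kb, had nearly equal values of 3.95, 3.95 and 3.78. The third site, at −4.3 kb, was called in the adult list alone, at 3.89. The closest peaks to it in the aged lists were those of the promoter, 3583 and 3696 bp away.

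The promoter window of Cldn4 held no NF-κB consensus within 100 bp of its summit but a pair of AP-1 sites (TGANTCA, searched on both strands), shown in capitals because they lie on either side of the adult summit, at 31 and 51 bp.
Cldn4 −0.3 kb, chr5:134947060-134947180: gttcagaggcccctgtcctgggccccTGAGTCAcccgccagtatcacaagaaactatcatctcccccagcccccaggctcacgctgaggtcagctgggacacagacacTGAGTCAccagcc

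Both AP-1 sites were also found in the Cldn4 promoter of the RefSeq table, which runs from 250 bases before to 50 after the start site, with first bases at −240 and −158.

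Cldn1, the claudin whose loss in mice is lethal through water loss across the skin, had no peak at its promoter. Its sites lay at −29.2, −14.7 and +16.9 kb, all outside gene records. The −29.2 kb site had fold enrichments of 7.16 in the adult, 6.24 in the IgG and 5.5 in the anti-IL-17 list, above 90.1%, 86.4% and 80.4% of the peaks. The +16.9 kb site, beyond the 3′ end of the gene, had 4.68, 4.42 and 4.12. Both thus had the same order of lists, and both hold the consensus. The −14.7 kb site, without it, had 3.61 in the adult list and 3.09 in the anti-IL-17 list and was not called in the IgG list, where the closest peak was that at −29.2 kb, 13973 bp away.

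Cldn7 had no peak of its own. Within 50 kb of its start the adult list held 4 peaks, the IgG list 2 and the anti-IL-17 list 3, each assigned to another gene. The nearest adult peak, 14783 bp downstream with a fold enrichment of 2.89, lay 126 bp from the start of Elp5. The highest of these peaks was 4.04 in the anti-IL-17 list and lay 663 bp into Eif5a, which encodes a translation factor.

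Ocln had a single site, in intron 1 at +1.0 kb, of low fold enrichment. The value was 2.97 in the adult list and 2.84 in the IgG list, above 24.3% and 12.2% of the peaks. No peak was called there in the anti-IL-17 list, in which the closest peak was 99142 bp away and assigned to Rad17. The window of the site is shown because it is the only p65 site of occludin. It holds no NF-κB consensus, and the GC box (GGGCGG) it contains is on the minus strand.
Ocln +1.0 kb, chr13:100551414-100551514: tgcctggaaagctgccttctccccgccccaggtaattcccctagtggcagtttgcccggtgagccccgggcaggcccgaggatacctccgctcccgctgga

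Tjp1 was bound in the adult list alone. The peak at +0.1 kb, in the 5′ untranslated part of exon 1 of 27, had a fold enrichment of 3.61 and stood above 50.6% of the list. The second peak, at −98.7 kb, had 3.03, above 27.0%. It lies inside the gene record of Tjp1, 57941 bp from the start of 9 predicted transcripts that begin farther upstream than the curated one. An AP-1 site lies 28 bp from its summit and is in capitals.
Tjp1 −98.7 kb, chr7:65469872-65469972: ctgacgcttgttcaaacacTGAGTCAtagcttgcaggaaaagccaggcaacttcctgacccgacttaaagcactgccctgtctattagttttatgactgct

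In the aged lists the nearest peaks to the Tjp1 start were 408928 and 408926 bp upstream and assigned to 1810008I18Rik.

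F11r had 3 sites in its first exon and first intron. The site at its start, +0.1 kb, was the weakest of the 17 in the adult list, with 2.77, and had 2.91 in the IgG list. No peak was called there in the anti-IL-17 list. The +4.0 kb site with the consensus had 4.67 in the adult, 3.69 in the IgG and 3.02 in the anti-IL-17 list, standing above 72.5%, 45.8% and 24.2% of the peaks. The +15.6 kb site, in the same intron and without the consensus, had 4.31, 4.5 and 4.43, above 67.1%, 67.0% and 67.2%. Within 1 intron, therefore, values at one site spread over the lists and at the other lay close together.

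Cdh1 had 5 peaks in the adult list, the most of the 8 genes there, 2 in the IgG list and 3 in the anti-IL-17 list. In the IgG list F11r had more, with 3, and in the anti-IL-17 list Cldn1 also had 3. Of the 4838 protein-coding genes bound in the adult list, 2.5% had 5 or more assigned peaks. All 5 sites lie in introns 1 and 2 of 15. In intron 2, the +5.3 kb site had 4.34 in the adult, 3.41 in the IgG and 4.83 in the anti-IL-17 list, and the +7.8 kb site had 3.75, 4.22 and 4.25. At both sites the anti-IL-17 list had the highest value. Neither holds the consensus within 100 bp of its adult summit, and the +5.3 kb site is shown as the strongest of E-cadherin in the adult and anti-IL-17 lists.
Cdh1 +5.3 kb, chr8:106608606-106608706: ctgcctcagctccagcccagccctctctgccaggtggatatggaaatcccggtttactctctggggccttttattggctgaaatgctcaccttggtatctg

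The Cdh1 site with the consensus, at +0.8 kb in intron 1, was called in the adult list alone, at 3.39. The +12.6 kb site had 3.96 in the adult list and 3.11 in the anti-IL-17 list. The +16.4 kb site was called in the adult list alone, at 3.13. Closest peaks in the lists without these sites were other Cdh1 peaks, 3207 to 8149 bp away.

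Ctnnb1 had no assigned peak. A single adult peak of 2.97 lay 14175 bp upstream of its start and was nearest to the long noncoding RNA gene 1700020M21Rik. In the aged lists no peak lay within 50 kb, and the nearest, assigned to Gm19385, were 156688 and 156709 bp upstream, with fold enrichments of 10.96 in the IgG list and 8.06 in the anti-IL-17 list. The adult list had a peak of 10.93 there, 156671 bp upstream of Ctnnb1. When start sites of protein-coding genes alone were used, these peaks fell to Ctnnb1 and exceeded those of Cldn4 in every list.

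Counting any peak within 50 kb of a start site, 8 of 8 genes had one in the adult list, 6 in the IgG list and 5 in the anti-IL-17 list. The same was true of 43.4%, 27.5% and 35.0% of all protein-coding genes. With the 4169 strongest peaks of each list the counts were 4, 6 and 5, beside 27.6%, 27.5% and 27.3% of all protein-coding genes. Besides the peaks near Cldn7 and Ctnnb1, the adult list held a pair of peaks near F11r assigned to Alyref2 and 1 near Cdh1 assigned to Tango6. A peak 39332 bp upstream of Cdh1, assigned to the long noncoding RNA gene 1110028F18Rik, had 3.19 in the adult list, and one overlapping it had 3.26 in the IgG list.

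**Figure D2:**
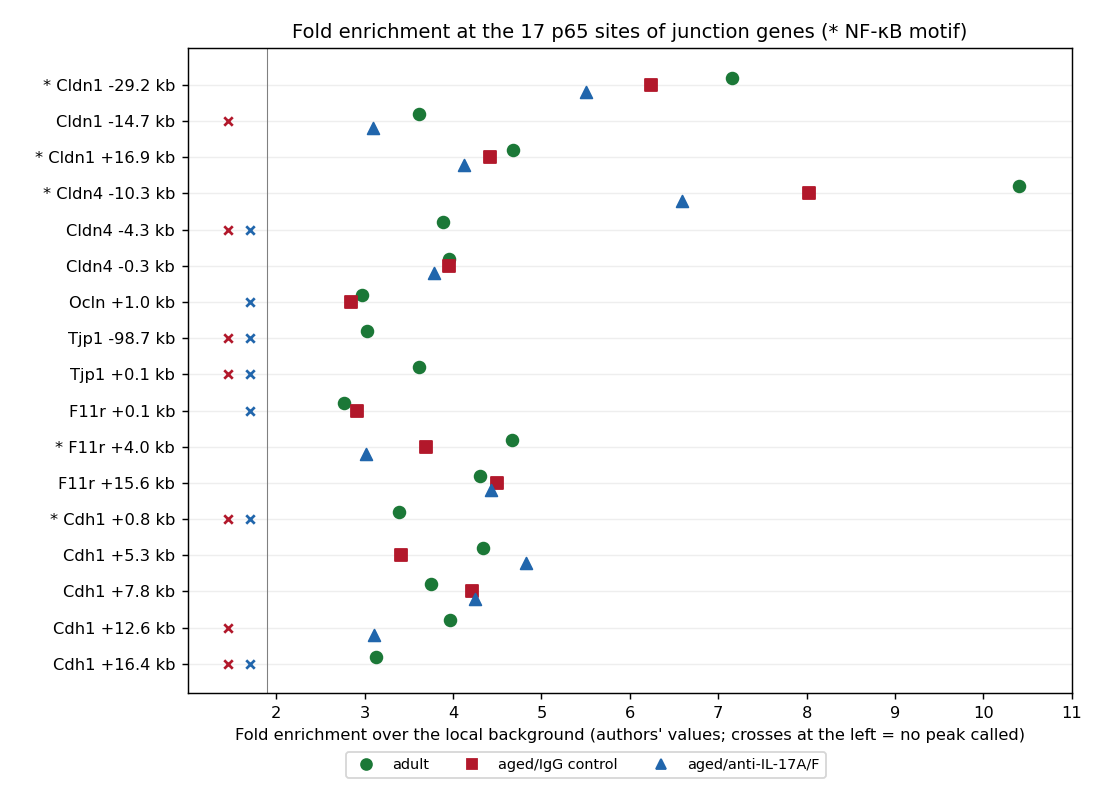
Fold enrichment (horizontal axis, as deposited) at each of the 17 sites, one row per site and one marker shape per list, with crosses at the left where a list has no peak and an asterisk at sites with the NF-κB consensus. At the 4 asterisked sites called in all 3 lists the adult marker is rightmost and the anti-IL-17 marker leftmost, and Cdh1 +5.3 kb and Cdh1 +7.8 kb have the anti-IL-17 marker rightmost.

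All 4 sites that held the consensus and were called in all 3 lists had the order adult above IgG above anti-IL-17. Of the other 4 sites called in all 3 lists, none had it in the rounded values used for these counts. Among them, Cldn4 −0.3 kb was tied at 3.95 in the adult and IgG lists, above 3.78 in the anti-IL-17 list. Among all 3502 adult peaks overlapped in both aged lists, 21.8% had that order, and among those with the consensus 21.3%. The order was noticed in these values, at 4 sites in 3 genes, and the lists have no replicates.

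Of the 10 sites shared by the adult and IgG lists, 6 had the lower value in the latter, beside 78.5% of all overlapping peaks. Cldn4 −0.3 kb, tied at 3.95 after rounding, was not counted as lower, whereas the shares over all peaks used unrounded values. The median ratio of IgG to adult was 0.95 at these sites, from 0.77 to 1.13, and 0.81 over all overlapping peaks. Of the 10 sites shared by the adult and anti-IL-17 lists, 7 were lower in the latter, beside 65.5%, with a median ratio of 0.87, from 0.63 to 1.13, and 0.9 over all. Between the aged lists the anti-IL-17 value was lower at 6 of 8 sites, beside 33.4% of overlapping peaks. The median ratio there was 0.94, from 0.82 to 1.42, and 1.1 over all.

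**Figure D3:**
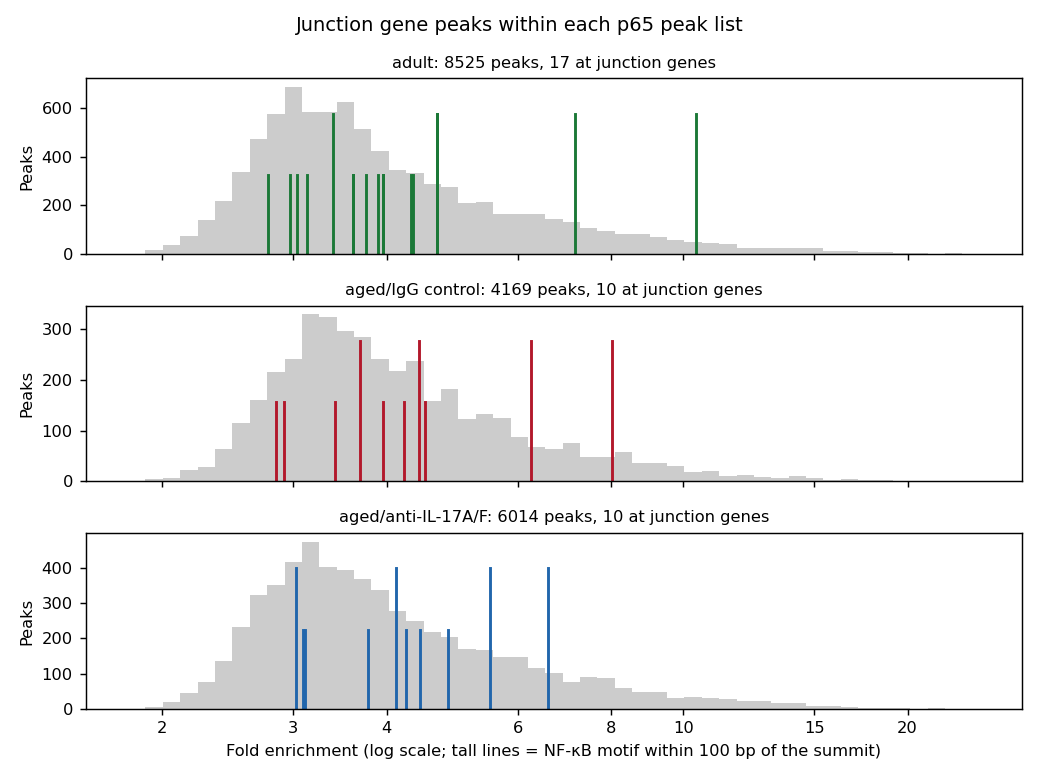
Number of peaks (vertical axis) by fold enrichment (horizontal axis, log scale) in each of the 3 lists, with a coloured line at each junction gene peak, tall where the NF-κB consensus lies within 100 bp of the summit. Most junction gene peaks lie in the body of each distribution, and the tall lines at Cldn4 −10.3 kb and Cldn1 −29.2 kb lie toward its upper end.

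Most junction gene peaks were of middling strength. The median member peak stood above 58.5% of the adult list, 57.4% of the IgG list and 63.0% of the anti-IL-17 list, with median fold enrichments of 3.89, 4.09 and 4.19. The medians of the whole lists were 3.6, 3.8 and 3.69. Strength and overlap went together across all adult peaks. Of those above the list median, 71.9% were overlapped in the IgG list and 84.3% in the anti-IL-17 list, and of the rest 19.1% and 36.4%. At the junction genes, 8 and 10 of 12 sites above the median were overlapped, and 2 and 0 of the 5 others. 5 of the 17 sites lay within 1 kb of a start site, as did 36.9% of all adult peaks.

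The consensus was present at 5 of 17 member peaks in the adult list, 4 of 10 in the IgG list and 4 of 10 in the anti-IL-17 list. The shares over all peaks were 28.5%, 37.8% and 34.9%. Of the 5 sites with it, 4 were called in all 3 lists, and of the 12 without it 4 were. Over all adult peaks, 61.3% of those with the consensus and 33.0% of those without were overlapped in both aged lists. AP-1 sites lay at 4 of the 17 adult member peaks and GC boxes at 4, beside 13.2% and 25.9% of all adult peaks. In the IgG list AP-1 sites lay at 1 of 10 and GC boxes at 5 of 10, beside 14.1% and 23.0%. In the anti-IL-17 list they lay at 2 and 5 of 10, beside 14.4% and 23.4%. The GRHL motif (AACCNGGTT) of grainyhead-like factors was at no member peak in any of the 3 lists and at 0.246% of all adult peaks.

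Promoter sequences of 7 of the 8 genes, 10 promoters in all, were in the RefSeq table for this build. None held the NF-κB consensus, which 4.5% of 32817 promoters did. AP-1 sites were in those of Cldn4 and F11r, 2 of 10, beside 7.81% of all promoters. The GC box was in 9 of 10, beside 35.6%. The pair of Ctnnb1 promoters overlap, as do those of Ocln, so the 10 are not separate sequences. GC boxes in the stretch shared by the Ctnnb1 promoters were counted in both. The F11r promoter held its AP-1 site at −109.

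Other junction genes were counted from lists drawn up with earlier results of these data known. Of 31 further tight junction genes, 18 had an assigned peak in the adult list, 11 in the IgG list and 15 in the anti-IL-17 list. Of 23 further adherens junction genes, the counts were 16, 10 and 13. Both stand beside the 23.0%, 12.9% and 17.4% of all protein-coding genes with an assigned peak. No gene of either set was bound in an aged list without being bound in the adult list. Of all 21000 protein-coding genes, 437 were bound in an aged list and not in the adult list, 1353 in the adult list alone and 15725 in no list. The adult list is also the longest, and whether junction genes differ from other genes in these patterns was not tested. Bound in the adult list alone were Cldn12, Magi1 and Marveld3 of the tight junction and Nectin2 and Nectin4 of the adherens junction. Their fold enrichments were 4.16 at Cldn12, 2.41 at Magi1, 2.86 at Marveld3, 3.84 at Nectin2 and 4.01 at Nectin4. Both sets of counts were highest in the longest list and lowest in the shortest.

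Several of these genes had strong peaks, and the values here are of the strongest peak of each gene in each list. Vcl, the gene of the actin linker vinculin, had fold enrichments of 10.54, 8.36 and 10.63 in the adult, IgG and anti-IL-17 lists. It had 2, 1 and 2 assigned peaks, the strongest 44628 bp downstream of its start in the adult list. Tjap1 had 10.47, 8.16 and 8.18. Zyx, the gene of the actin regulator zyxin, had 8.4, 5.68 and 6.28, from 1, 1 and 2 peaks. Pard6b, of the polarity complex, had 7.97, 8.1 and 5.53, from 2 peaks in each list. Cldn4, at 10.4 in the adult list, thus stood close to Vcl and Tjap1 there.

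Ctnna1, the α-catenin that joins β-catenin to actin, had 1 peak in each list, of 3.07 at −218 bp in the adult, 2.7 at +314 bp in the IgG and 3.49 at −269 bp in the anti-IL-17 list. Nectin1, an adhesion receptor of adherens junctions, had 9, 6 and 9 peaks, the highest of which reached 5.63, 3.63 and 6.26. These are not values of a single site. The highest lay at +34015 bp in the adult, −70396 bp in the IgG and +34021 bp in the anti-IL-17 list. Cdh3, which encodes P-cadherin, had none.

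Of 10 transcription factor genes known to regulate Cdh1, 4 were bound in the adult list, 3 in the IgG list and 4 in the anti-IL-17 list, beside 23.0%, 12.9% and 17.4% of all protein-coding genes. These were Grhl2, Grhl3 and Ovol1 in all 3 lists and Grhl1 in the adult and anti-IL-17 lists, all of them genes of epithelial differentiation. The repressors Snai1, Snai2, Twist1, Zeb1 and Zeb2 had no assigned peak in any list, and neither had Ovol2. That is the usual state, since 15725 of all 21000 protein-coding genes had none in any list.

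**Figure D4:**
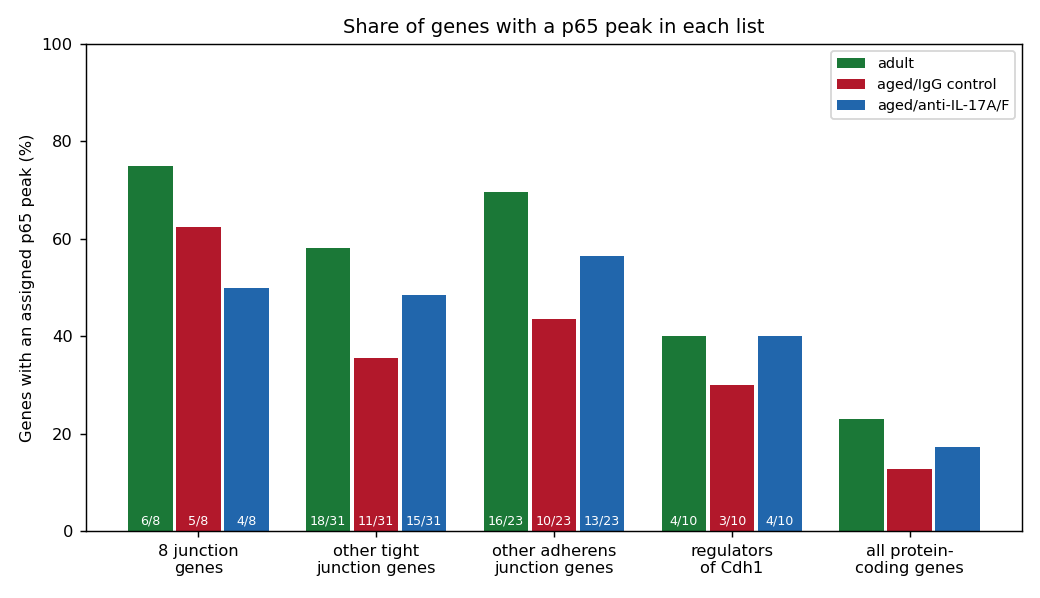
Percentage of genes with an assigned p65 peak (vertical axis) in each of the 3 lists (bar colours) for the 8 junction genes, 3 further gene lists and all protein-coding genes, with the number of bound genes of all genes written in the bar. Bars carry no error, since each list is 1 pooled sample, and bars for the junction lists stand above those of all protein-coding genes, at 6, 5 and 4 of the 8 genes.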

How the data were processed

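The authors trimmed the reads (Trimmomatic 0.36), aligned them to mm10 with BWA, merged and deduplicated the 4 mice of each condition and downsampled the pools to equal depth. MACS2 then called peaks (q value 0.01). Whether the input entered the peak calls is not given in the sources used here. The deposited lists give for each peak a fold enrichment, a linear ratio over local background, a −log10 p and q value, a score and the summit. Each list was read as deposited. Start sites were those of curated RefSeq transcripts (GRCm38.p6, the mm10 assembly). The percentile is the share of peaks in the list with an equal or lower fold enrichment, the peak itself included. Statements that a peak stood above a share of its list use this measure. Overlaps required 1 bp, and motif searches covered 100 bp to either side of a summit, on either strand. Scripts ran in Python 3.11.15 with pandas 2.3.3 and pysam 0.24.0. Assignment, overlap and motif search were tested on simulated data, the overlap also against bedtools 2.31.1. All peaks of the 8 genes are given. Of other junction genes, counts are given, with those of the highest fold enrichment and those bound in 1 list, except that 1 gene is not reported here. The naming of Ctnna1, Cdh3 and the Cdh1 regulators, and the choice of the windows with AP-1 sites, followed inspection of the values. The members and lists were chosen with earlier results of these data known.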

Additional observations from a re-analysis of the deposited data

How the results depend on the processing

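Of 95 alternative values, 91 lay within 1.5 times the reported count. These include the fall from 6 to 4 adult genes with an assigned peak at equal list length. A −log10 q of at least 5 removed no assigned peak, the lowest being 5.5, so counts of assigned peaks could not move there. Taking only the 4169 strongest peaks per list, the adult list had 4 junction genes with a peak within 50 kb instead of 8, and 10 assigned peaks instead of 17. With a looser motif (G at the first 3 and C at the last 2 of 10 positions), 13 adult and 7 IgG peaks held a match instead of 5 and 4. This form is also at 67.9% of all adult peaks and 72.8% of all IgG peaks. With start sites of protein-coding genes only, the bound genes were 7, 6 and 5, the added gene being Ctnnb1. The share of all protein-coding genes under that rule was not computed, so these counts have no background beside them. Without the adult list, an alternative added after seeing the data because of its peak names, 12 of the 17 sites remained. No paired analysis was possible because each condition is 1 pooled list and no test was made. For the same reason no replicate could be left out. A site without a peak may hold binding below the threshold of the peak caller, and its signal was not measured here.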
